A study of Mus musculus with 8 samples.

Results

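The complement genes examined here were C1qa, C1qb, C1qc, C3, C4b, Cfb, C3ar1 and C5ar1, 8 of the 21229 gene symbols on the array. They were taken as every probe whose symbol in the annotated data matrix was one of these names, which gave 10 probes, 2 each for C3 and C3ar1 and 1 for each of the others. RNA from the whole lungs of 8 mice, 4 wild-type and 4 transgenic for Scgb3a2, was hybridised to 8 two-colour Agilent arrays. All mice were male, 8 to 10 weeks old and of strain C57BL/6, and none was treated. The transgenic mice carried mouse Scgb3a2 cDNA under the human SP-C promoter, which drives expression in alveolar type II cells, and came from 1 founder. Each lung was labelled with Cy5, and 1 pool of mouse lung RNA was labelled with Cy3 on every array, which the methods describe as equal amounts of RNA from each sample. Values are log2 ratios of lung over pool, so that negative values stand for a signal below that of the pool. A pool made of these 8 lungs alone, in equal parts, would give mean ratios near 0 if the dyes had no effect. Yet 28% of all probes tested were called below the pool and 29.5% above it by limma at an adjusted p of 0.05. Without a dye effect of the probes, the values would therefore conflict with the pool as described. The dyes were not swapped, so a dye effect of the probe and another make-up of the pool cannot be told apart, and a ratio to the pool is not a level relative to the mean of these lungs.

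Complement is a cascade of plasma and cell-surface proteins that tags microbes and damaged cells. C1q, built from the chains of C1qa, C1qb and C1qc, starts the classical pathway, which cleaves C4 and C2. Cfb forms the alternative pathway's convertase with C3, and both routes meet at C3, whose fragments are read by receptors on myeloid cells. C1q is made mainly by macrophages, whereas C3, C4 and Cfb are made by liver and by epithelial and stromal cells, where inflammatory signals raise them.

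Scgb3a2 was measured first as a check of the labels. Its log2 ratios were 0.01, -0.39, 0.58 and -0.56 in wild-type replicates 1 to 4 and 1.26, 0.47, 0.70 and 0.74 in transgenic replicates 1 to 4. The transgenic mean was 0.88 higher (SE 0.24, a 1.84-fold difference), with limma p = 0.00329, adjusted p = 1.00 and exact permutation p = 0.0571. Wild-type replicate 3 lay above transgenic replicate 2, so the groups overlapped by that lung. Between 32257 and 34709 probes were well above background on each array, all 10 complement probes among them on all 8 arrays. The number of arrays limits the precision. Spots flagged as outliers were left out, which removed C4b on wild-type replicate 1, so its values are from 3 wild-type and 4 transgenic lungs.

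The C1q genes lay furthest below the pool of the 8 genes and did not pass the test between genotypes. C1qa, C1qb and C1qc are neighbours on chromosome 4 (C1qb at chr4:136880126-136886200, C1qc at chr4:136889801-136892936 and C1qa at chr4:136895916-136898844 in GRCm38.p6), with no other annotated gene between them. C1qa gave -2.04, -1.69, -1.92 and -2.11 in the wild-type lungs and -2.0, -1.73, -1.95 and -2.42 in the transgenic lungs. C1qb gave -2.03, -1.91, -2.01 and -2.15 against -1.99, -1.95, -2.17 and -2.51. The 2 groups overlapped for both genes, and transgenic replicate 4 was the lowest lung in each. C1qc gave -1.67, -1.72, -1.71 and -1.86 against -1.40, -1.52, -1.69 and -2.04, again with overlap and with transgenic replicate 4 lowest.

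The wild-type lungs averaged -1.94 ± 0.18 (SD, n = 4) for C1qa, the transgenic lungs -2.03 ± 0.29 (SD, n = 4), and the log2 difference was -0.09 (95% interval -0.42 to 0.25; p = 0.578 by limma and 0.657 by exact permutation). For C1qb the difference was -0.13 (95% interval -0.42 to 0.16), with p = 0.333 by limma and 0.429 by exact permutation. For C1qc it was 0.08 (95% interval -0.22 to 0.38), with p = 0.566 by limma and 0.600 by exact permutation, and it turned to -0.15 with the background fitted on all spots. In folds, the 3 intervals together ran from 0.747 to 1.30. The C1qb difference was -0.015 without transgenic replicate 4 and -0.33 with the background fitted on all spots. In whole lung RNA, fewer cells of a type and less RNA per cell cannot be told apart.

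Over the 8 lungs the mean ratio to the pool was -2.09 for C1qb, -1.98 for C1qa and -1.70 for C1qc, which is 4.26-, 3.95- and 3.25-fold below the pool channel. All 8 lungs were below the pool for each of the 3 genes, by 2.64-fold or more, and all 3 passed limma's test against 0 after adjustment. Only 83 of the 32645 probes tested had a lower mean ratio than C1qc. Macrophage markers stood beside them on the same side: 9 of 13 tested were called below the pool and 1 above, with a median ratio of -0.44, where 28% of all probes were called below and 29.5% above. The macrophage lysosomal gene Cd68 was at -2.04, the Fc receptor gene Fcgr1 at -1.70 and Ms4a7 at -1.60, while Siglecf, a marker of alveolar macrophages, was at 0.49. The mean of the 10 macrophage markers with a value in every lung ranged from -0.81 to -0.54 in wild-type and from -0.89 to -0.37 in transgenic lungs. Transgenic replicate 4, the lowest for all 3 C1q genes, was also the lowest for these markers. The same lung was lowest for the marker lists of neutrophils (-1.45), club cells (0.20), adipocytes (-0.08) and hepatocytes (-0.23). It was not lowest for those of type II cells, fibroblasts, endothelium, mesothelium and B cells. The part of the macrophage markers in the C1q values was not tested.

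The promoters of C1qb and C1qc are shown because these adjacent genes were among the 3 with the lowest ratios to the pool. They are the 250 bases before each RefSeq transcript start in GRCm38.p6, on the minus strand and written 5′ to 3′. Matches to 4 of the searched motifs are in capitals. RefSeq promoters were found for 5 of the 8 genes, and those of C1qa, C4b and Cfb were not used here. The first lies at chr4:136886201-136886450 and the second at chr4:136892915-136893164. The annotated C1qc gene reaches chr4:136892936, inside the second window, so distances in it hold for the transcript start used.
C1qb: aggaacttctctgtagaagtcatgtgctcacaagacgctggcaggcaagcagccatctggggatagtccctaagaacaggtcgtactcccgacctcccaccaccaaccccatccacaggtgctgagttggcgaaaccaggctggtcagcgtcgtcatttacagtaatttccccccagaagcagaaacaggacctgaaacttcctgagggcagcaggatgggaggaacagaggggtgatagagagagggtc
C1qc: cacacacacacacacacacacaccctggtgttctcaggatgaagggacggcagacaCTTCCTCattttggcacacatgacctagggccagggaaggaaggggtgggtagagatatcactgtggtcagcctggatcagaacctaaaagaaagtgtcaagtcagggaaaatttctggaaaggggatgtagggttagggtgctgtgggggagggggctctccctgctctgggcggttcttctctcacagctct
The 4 motifs were GAGGAAG (the core bound by PU.1, a myeloid transcription factor), TTCNNNGAA (STAT), TTGCNNAA (C/EBP) and TATAAA, read on both strands. The interferon-stimulated response element and the NF-kB site were searched as well, and their matches are not marked here. C1qc held 1 PU.1 core on the opposite strand, starting 194 bases before the transcript start, and C1qb held none of the 4 in this window. GAGGAAG occurred in 10.6% of the 32851 mouse promoters of the same length, TTCNNNGAA in 7.02%, TTGCNNAA in 9.56% and TATAAA in 12.4%. A match gives a position of these letters and does not show that a factor binds there.

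**Figure D1:**
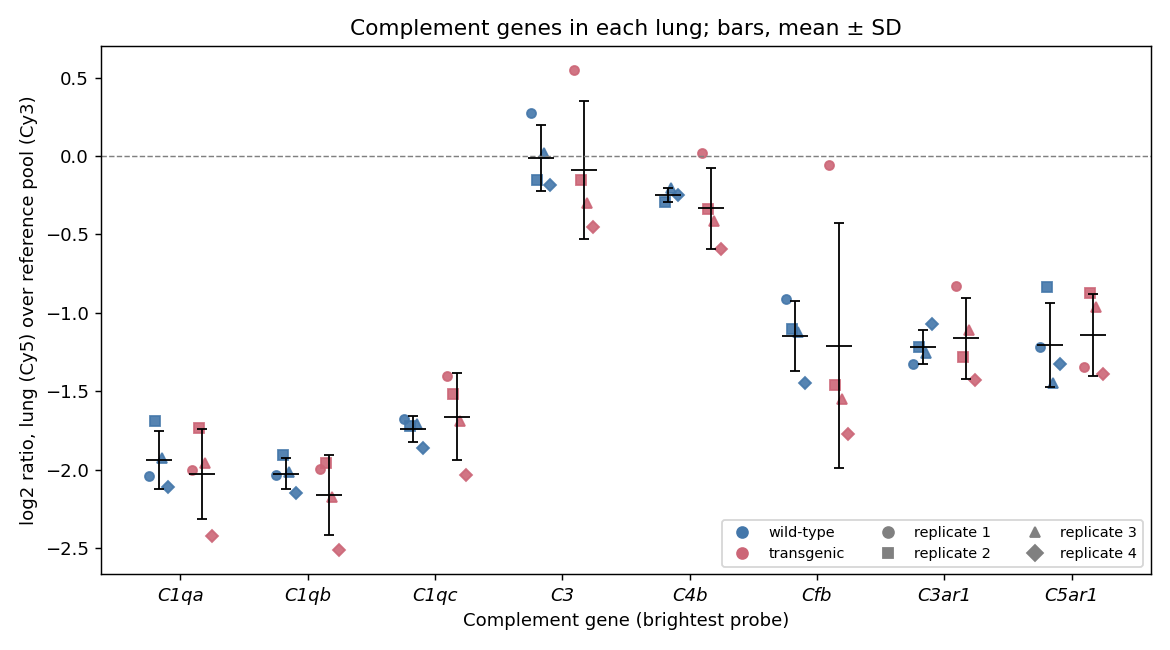
Log2 ratio of each lung to the reference pool (y axis) for the 8 complement genes (x axis, brightest probe), with wild-type lungs in blue, transgenic lungs in red, replicate numbers by marker shape and bars for the mean and SD. The genotypes overlap for every gene; the C1q genes lie between -2.51 and -1.40, and Cfb reaches from -1.77 to -0.06, with transgenic replicate 1 highest.

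C3, C4b and Cfb, the central component and 2 convertase components, did not pass the test between genotypes either, but C3 and Cfb varied widely from lung to lung. Cfb gave -0.91, -1.10, -1.12 and -1.45 in the wild-type lungs and -0.06, -1.46, -1.55 and -1.77 in the transgenic lungs. Transgenic replicate 1 was the highest of all 8 lungs, and the other 3 transgenic lungs were the lowest 3. The wild-type mean was -1.14 ± 0.22 (SD, n = 4) and the transgenic mean -1.21 ± 0.78 (SD, n = 4), a difference of -0.06 (95% interval -0.74 to 0.61; p = 0.840 by limma and 0.943 by exact permutation). Without transgenic replicate 1 the difference was -0.45, with a limma p of 0.00830 that did not pass adjustment (adjusted p = 0.999). That was the smallest unadjusted p of the 8 genes under any of the 23 alternatives, and the lung left out was the highest. The SD of Cfb between lungs of a genotype was 0.57, above that of 99.3% of the probes tested, for which the median was 0.18.

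C3 was read by 2 probes. The brighter one, spotted 10 times per array, gave 0.27, -0.15, 0.02 and -0.19 in the wild-type and 0.55, -0.15, -0.30 and -0.45 in the transgenic lungs. Transgenic replicate 1 was again highest and transgenic replicate 4 lowest. The difference was -0.08 (95% interval -0.51 to 0.36), with p = 0.708 by limma and 0.743 by exact permutation. Without transgenic replicate 1 it was -0.29 (adjusted p = 0.999 by limma). The second, single-spot probe gave -1.0, -0.38, -0.36 and -1.23 against -0.27, -1.35, -1.24 and -1.29, a difference of -0.29 (95% interval -0.87 to 0.28; p = 0.281 by limma and 0.343 by exact permutation). This probe showed the same high lung, transgenic replicate 1, apart from the other 3 transgenic lungs. Over the 8 lungs the probes followed each other with Pearson r = 0.62 (exact permutation p = 0.105) and Spearman rho = 0.79 (exact permutation p = 0.0279). They were not alike against the pool: the mean ratio was -0.05 for the brighter probe (adjusted p = 0.686) and -0.89 for the second, and the mean of both was -0.47 (adjusted p = 0.00266).

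The C3 promoter is shown because C3 belongs to the set of genes that varied together. It is at chr17:57228137-57228386 on the minus strand of GRCm38.p6, taken and marked as above.
C3: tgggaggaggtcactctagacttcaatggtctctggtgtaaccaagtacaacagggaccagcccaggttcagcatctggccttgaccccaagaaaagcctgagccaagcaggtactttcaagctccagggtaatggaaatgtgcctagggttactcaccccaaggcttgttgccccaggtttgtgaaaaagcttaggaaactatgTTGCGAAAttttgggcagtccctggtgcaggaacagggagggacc
The capitals are 1 match to TTGCNNAA, the letters of a C/EBP site, which starts 45 bases before the transcript start. C/EBP factors are known regulators of acute phase genes.

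C4b gave -0.29, -0.20 and -0.25 in wild-type replicates 2 to 4 and 0.02, -0.34, -0.42 and -0.59 in the transgenic lungs. The wild-type lungs lay close together inside the transgenic range. The wild-type mean was -0.25 ± 0.04 (SD, n = 3), the transgenic mean was -0.33 ± 0.26 (SD, n = 4), and the difference was -0.08 (95% interval -0.40 to 0.24; p = 0.573 by limma and 0.629 by exact permutation). C4b and Cfb lie in the same stretch of chromosome 17 (C4b at chr17:34728139-34743902, Cfb at chr17:34856374-34862514), as does C4a, a closely related copy of C4b, at chr17:34809092-34823460. C4a had its own probe, with a difference of -0.14 (p = 0.412 by limma and 0.457 by exact permutation), and gave -0.11 in transgenic replicate 1 against -0.58, -0.81 and -0.82 in the other transgenic lungs. How far each probe also binds the other copy was not tested, so the C4b values are uncertain to that extent.

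**Figure D2:**
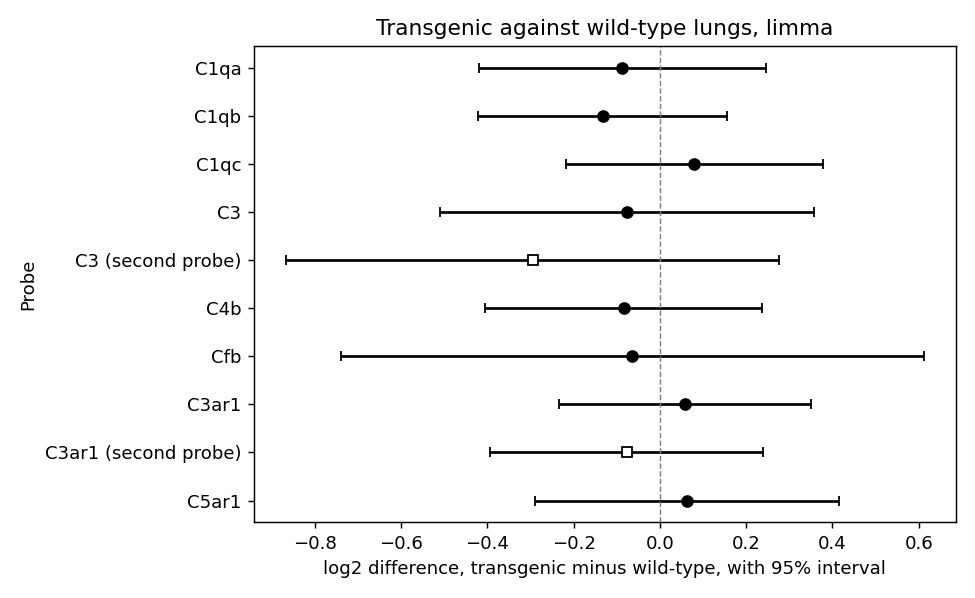
Log2 difference, transgenic minus wild-type (x axis), with 95% interval from limma for each of the 10 complement probes (y axis); filled circles are the brightest probe of a gene and open squares second probes. All 10 intervals include 0, and the interval of Cfb, from -0.74 to 0.61, is the widest among the brightest probes.

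The receptor genes C3ar1 and C5ar1 encode the receptors of the small C3 and C5 fragments that attract and activate myeloid cells. C3ar1 gave -1.33, -1.22, -1.26 and -1.07 in the wild-type and -0.83, -1.28, -1.11 and -1.43 in the transgenic lungs. The transgenic lungs spanned the wild-type range on both sides. The difference was 0.06 (95% interval -0.23 to 0.35; p = 0.672 by limma and 0.714 by exact permutation), and the second C3ar1 probe had the opposite sign, -0.08 (95% interval -0.39 to 0.24). C5ar1 gave -1.22, -0.83, -1.45 and -1.32 against -1.34, -0.87, -0.96 and -1.39. The highest lung was wild-type replicate 2 and the lowest wild-type replicate 3, so the transgenic lungs fell inside the wild-type range. The difference was 0.06 (95% interval -0.29 to 0.42; p = 0.700 by limma and 0.857 by exact permutation). With each array centred on its median in place of loess, both receptors turned sign, to -0.040 for C3ar1 and -0.033 for C5ar1.

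Between genotypes, 0 of the 8 genes passed the adjusted threshold of 0.05 by limma, where 0% of all probes tested were called, and 0 of 8 had an unadjusted p under 0.05, where 2.09% of all probes did. The differences ran from -0.13 to 0.08, with 3 genes higher and 5 lower in the transgenic lungs and a median of -0.07, against a median of 0.00 over all probes. The 2 genotypes overlapped for all 8 genes. These p-values do not show that the levels were equal. Each slide held 1 lung of each genotype, and each of 2 scan days held 2 of each. Within scan days the differences lay between -0.23 and 0.19 for all genes, and Cfb was 0.10 on the first and -0.23 on the second. Within slides Cfb was 0.85 on slide 1, which held transgenic replicate 1, and -0.35, -0.65 and -0.11 on the others. With slide or scan day as a block, 0 of 8 genes passed the adjusted threshold, and the differences were as without the block except for C4b, which has no value for 1 lung and moved to -0.20 with slide and to -0.10 with scan day as a block.

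Against the pool, 7 of the 8 genes were called, all of them lower, where 28% of all probes were called lower and 29.5% higher. Besides the C1q genes, Cfb had a mean ratio of -1.18, C3ar1 of -1.19 and C5ar1 of -1.17, which put them 2.26-, 2.28- and 2.25-fold below the pool channel in the mean. C4b was at -0.29 (95% interval -0.45 to -0.13, adjusted p = 0.00591), and the brighter C3 probe at -0.05 (95% interval -0.27 to 0.17) was the only one not called. A mean ratio below -1 was held by 6 of the 8 genes and by 401, or 1.23%, of all probes tested. The pool was the same on every array, so these ratios bear on lungs against pool and not on genotype. Acute phase and interferon-response genes, which respond to the signals that also raise C3 and Cfb, were called below the pool in 9 of 14 cases and above it in 1, beside the same shares of all probes. Their median ratio to the pool was -0.66. Saa3, an acute phase gene of the lung named after its value was seen, was far below that median at -3.53. The part of these genes, of the dye and of the make-up of the pool in the low ratios was not tested.

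**Figure D3:**
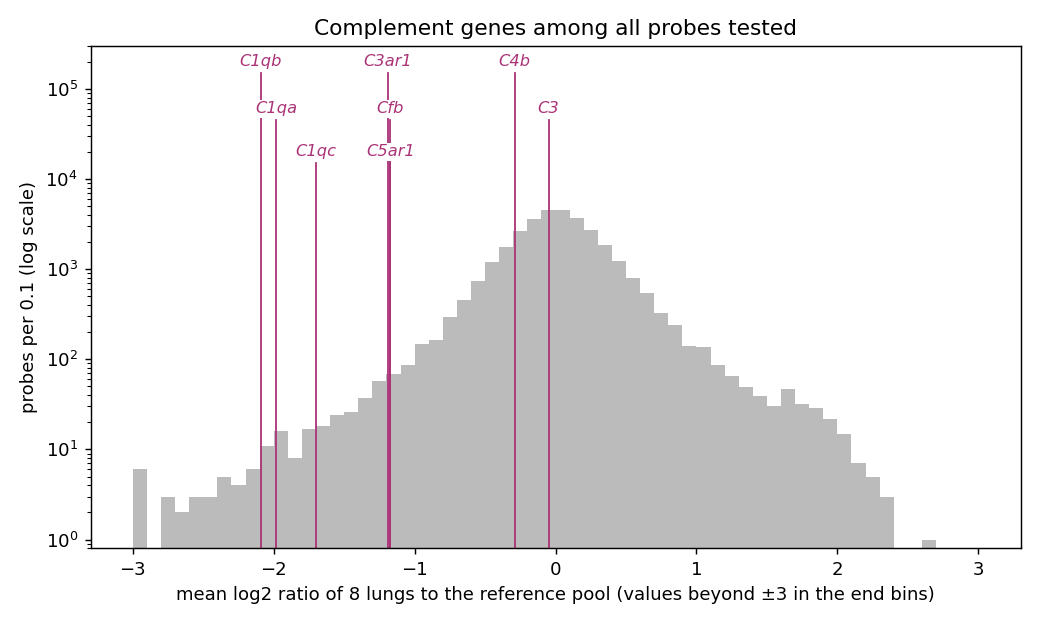
Number of probes (y axis, log scale) by mean log2 ratio of the 8 lungs to the reference pool (x axis, bins of 0.1) for all 32645 probes tested, with the 8 complement genes marked by lines. The C1q genes lie in the lower tail at -2.09 to -1.70, Cfb, C3ar1 and C5ar1 fall together near -1.2, and C3 and C4b lie in the body of the distribution.

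Across the lungs, C3, C4b and Cfb varied together. Of the 28 pairs of the 8 genes, 24 had a positive Pearson r, and 4 passed an adjusted p of 0.05 by exact permutation with Benjamini-Hochberg adjustment over the 28. That count was 17 with the background fitted on all spots, 14 with the sample channel alone, 2 without transgenic replicate 1 or 3 and 1 without transgenic replicate 2 or 4. Of 17 alternatives run on the pairs, C3 with Cfb passed in 17, C3 with C4b in 12 and C4b with Cfb in 11. The C3 pairs rest on the brighter C3 probe, which had r = 0.62 with the second one (exact permutation p = 0.105). The second probe alone was not set against Cfb or C4b. The strongest pair was C3 with Cfb (r = 0.96, adjusted p = 0.00417, rho = 0.95, adjusted p = 0.0319, n = 8, exact permutation). Without the 2 lungs farthest from the median of C3, transgenic replicate 1 and wild-type replicate 1, r was 0.89, and r was 0.96 for deviations from the genotype means and 0.95 for deviations from the scan-day means. C3 with C4b gave r = 0.94 (adjusted p = 0.0139) and rho = 0.89 (adjusted p = 0.115) over 7 lungs by exact permutation, and r = 0.85 without the 2 farthest lungs. C4b with Cfb gave r = 0.91 (adjusted p = 0.0264) and rho = 0.89 (adjusted p = 0.115) over 7 lungs by exact permutation, and r = 0.69 without the 2 farthest. In all 3 pairs transgenic replicate 1 was the highest lung and transgenic replicate 4 the lowest. Without transgenic replicate 1 the 3 values of r were 0.92, 0.94 and 0.85.

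The fourth pair was C1qa with C1qb (r = 0.90, adjusted p = 0.0220; rho = 0.81, adjusted p = 0.152; n = 8, exact permutation). Without transgenic replicate 4 and wild-type replicate 2, the lowest and the highest lung for C1qa, its r fell to 0.59. Leaving out the ends of a range can lower r by itself, and how far the relation rests on those lungs was not tested. C1qc had r = 0.65 with C1qa and 0.77 with C1qb, and neither passed after adjustment (exact permutation adjusted p = 0.193 and 0.127). For deviations from the scan-day means r was 0.93 for C1qa with C1qb, 0.75 for C1qa with C1qc and 0.79 for C1qb with C1qc. C1qa with C1qb passed in 10 of the 17 alternatives. The points share the pool and the normalization of their array, and r over 0.9 with C3 was reached by 1.2% of 23691 probes of named genes outside the 8, with Cfb by 0.806% and with the mean of the C1q genes by 0.0464%.

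**Figure D4:**
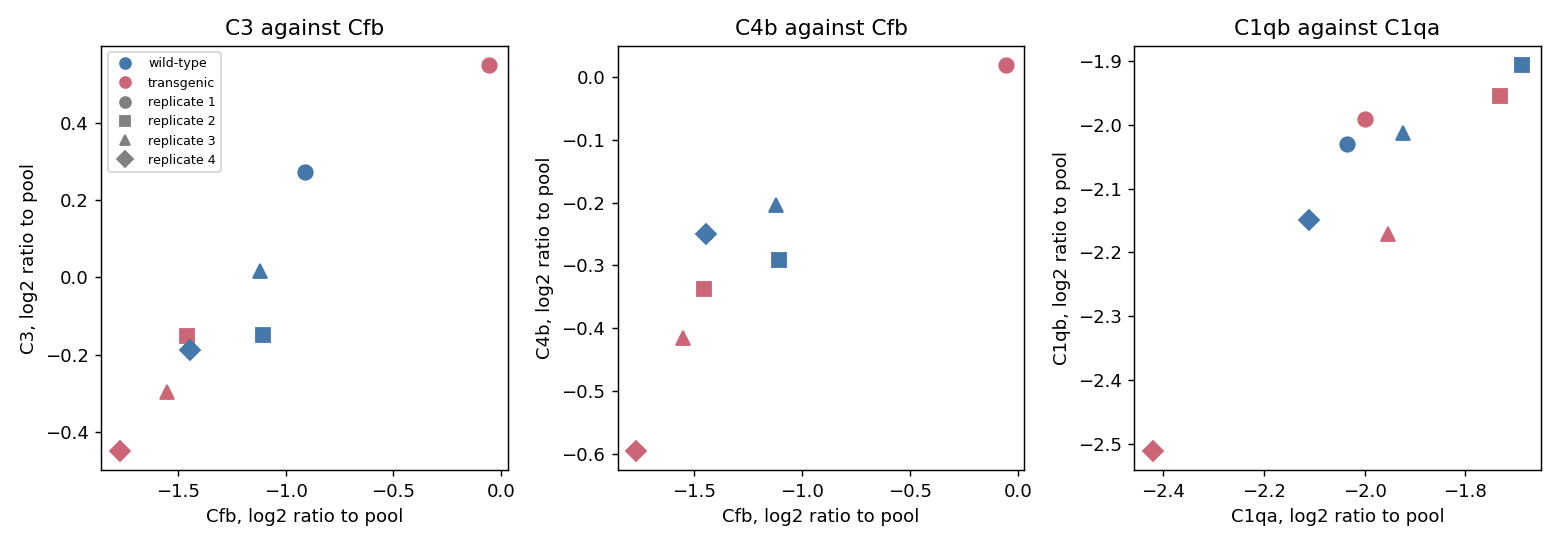
Log2 ratios to the pool of C3 against Cfb, C4b against Cfb and C1qb against C1qa, 1 point per lung, with colour for genotype and marker shape for replicate; C4b has 7 points. In the first 2 panels transgenic replicate 1 lies at the upper right and transgenic replicate 4 at the lower left, with r = 0.96 and 0.91, and in the third transgenic replicate 4 lies apart at the lower left.

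Marker lists were set beside this pattern. The mean of 10 neutrophil genes was 0.62 in transgenic replicate 1, the highest lung, and -1.45 in transgenic replicate 4, the lowest, while the remaining 6 lungs ran from -1.09 to 0.20. The club cell list had the same highest and lowest lung, at 1.51 and 0.20. Transgenic replicate 1 was also highest for the fibroblast, B cell and acute phase and interferon lists, and lowest for the type II cell list. Only the macrophage, neutrophil, type II cell, fibroblast and acute phase and interferon lists were set against the 8 genes. Of 40 relations between the 8 genes and 5 lists, 1 passed adjustment by exact permutation, that of C3ar1 with the neutrophil genes (r = 0.93, adjusted p = 0.0308; rho = 0.81, adjusted p = 0.436; n = 8), with r = 0.78 without the 2 lungs farthest from the median of the list. That relation is for the brighter C3ar1 probe. Over the 8 lungs the 2 C3ar1 probes gave Pearson r = 0.45 (exact permutation p = 0.270). The second probe was not set against the lists. Cfb had r = 0.62 with the neutrophil list (adjusted p = 0.524) and 0.47 with the acute phase and interferon list (adjusted p = 0.691), both over 8 lungs by exact permutation. C1qa had r = 0.90 with the macrophage list (adjusted p = 0.0962; rho = 0.90, adjusted p = 0.183; n = 8, exact permutation) and kept 0.80 without the 2 farthest lungs. The other C1q genes had lower values with that list. C1qb had r = 0.75, and 0.49 without the 2 farthest lungs. C1qc had r = 0.75, and 0.44 without them. C5ar1 had r = 0.78, and 0.71 without them. For C1qb, C1qc and C5ar1 alike the adjusted p was 0.215 (n = 8, exact permutation). The part of these cells in the member values was not tested.

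The genes whose ratios most resembled each pattern over the lungs were named by the highest Pearson r among those 23691 probes, as a description. For the mean of the C1q genes they were Aarsd1 (r = 0.95), Unc119 (0.95) and Mtch2 (0.94). For C3 they were Adamts14 (0.99), 4933425O20Rik (0.99) and Wdpcp (0.98), and for Cfb they were Oas1d (0.99), Tet1 (0.98) and Foxq1 (0.98). For C4b, over 7 lungs, they were Usp13 (0.98), Shmt2 (0.98) and Apol7a (0.98). C3ar1 was most like Ogg1 (0.98), Tgm5 (0.98) and Mkl1 (0.97), and C5ar1 most like Skp2 (0.97), Slc29a3 (0.97) and 2810046L04Rik (0.95). No lead gene was shared between the patterns.

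Of 47 other complement genes listed, 45 were on the array and 33 could be tested, and 0 passed the adjusted threshold between genotypes by limma. Their median difference was 0.03, 19 being higher and 14 lower in the transgenic lungs. By limma 2 of the 33 had an unadjusted p under 0.05, both lower, where 2.09% of all probes tested did. The first was C6, a component of the membrane attack complex, with -0.41, -0.09, 0.25 and -0.13 in the wild-type and -0.64, -0.34, -0.50 and -0.51 in the transgenic lungs. Its difference was -0.41 (SE 0.14, p = 0.0127 by limma, exact permutation p = 0.0571), and wild-type replicate 1 lay inside the transgenic range. The second was Fcnb, a ficolin that starts the lectin pathway, with -0.10, -0.03, -0.02 and -0.14 against -0.27, -0.22, -0.34 and -0.42. It was the only one of the 33 whose genotypes did not overlap, with a difference of -0.24 (SE 0.09, p = 0.0250 by limma, exact permutation p = 0.0286, the smallest that 4 against 4 allow). The Fcnb probe was dim, with signals of 114 to 155 in the lungs and 105 to 153.5 in the pool. Its local background in the lung channel was 56 to 61. Groups without overlap were found for 645, or 1.98%, of all probes tested.

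Cfd, the protease that cleaves Cfb, had the lowest difference, -0.76 (95% interval -1.79 to 0.27; p = 0.133 by limma and 0.343 by exact permutation). Its ratios were 1.36, 0.49, 1.43 and 0.39 in the wild-type and 1.09, 0.08, 0.88 and -1.43 in the transgenic lungs, so transgenic replicate 4 stood far below the others. Cfd is a known product of fat cells, and the adipocyte marker Adipoq gave 1.20, 0.47, 0.95 and 0.83 against 0.25, 0.00, 0.49 and -0.84, with transgenic replicate 4 lowest there too. Of the 6 adipocyte markers tested 1 was higher and 5 lower, and their mean ranged from 0.37 to 0.74 in wild-type and from -0.08 to 0.42 in transgenic lungs. Their part in the Cfd value was not tested. C1s, a serine protease of the C1 complex, had the third lowest difference, -0.27 (p = 0.0885 by limma and 0.143 by exact permutation, with 3 transgenic values). The 3 highest were C4bp, an inhibitor of the classical pathway, at 0.21 (exact permutation p = 0.457, with 3 transgenic values), the second C5a receptor C5ar2 at 0.19 (p = 0.257) and Itgam, a chain of complement receptor 3, at 0.18 (p = 0.400).

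**Figure D5:**
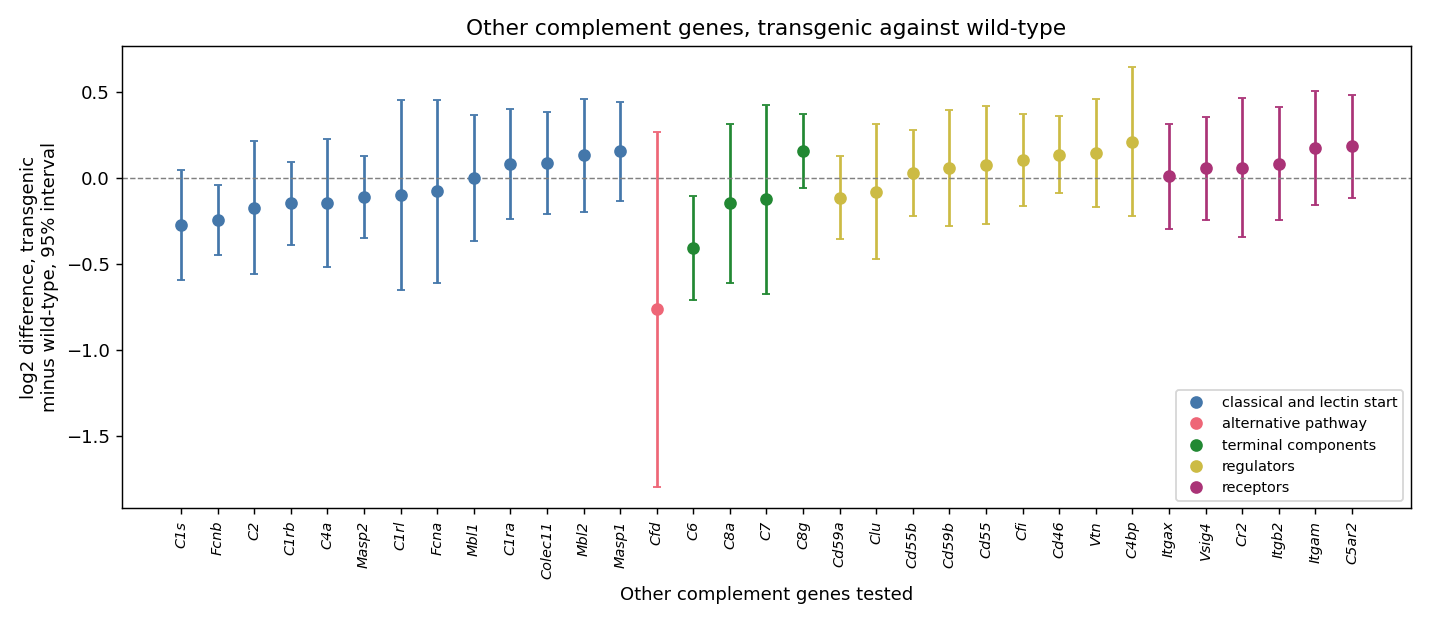
Log2 difference, transgenic minus wild-type (y axis), with 95% interval from limma for the 33 other complement genes tested (x axis), coloured by role. The intervals of 31 genes include 0, and those of C6 and Fcnb lie below it.

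By role, the 13 genes of the classical and lectin start had 5 higher and 8 lower, the 4 terminal components 1 and 3, the 9 regulators 7 and 2 and the 6 receptors 6 and 0, with medians of -0.10, -0.13, 0.08 and 0.07. Against the pool 16 of the 33 were called lower and 7 higher, where 28% of all probes were called lower and 29.5% higher. Itgam and its partner chain Itgb2 were at -1.35 and -1.34 and the ficolin Fcna at -1.23, near Cfb, C3ar1 and C5ar1, whereas the mannose-binding lectin gene Mbl2 was at 1.55. Brightest probes of 12 listed genes were not tested, among them Hc, the gene of C5, and the regulator Serping1, which were flagged as outliers on at least 4 of the 8 arrays.

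The other lists between genotypes were as follows. The median of 13 macrophage markers was 0.04 (7 higher, 6 lower), and the largest difference was 0.34, for Cx3cr1. That of 11 neutrophil markers was 0.03 (8 higher, 3 lower), with Ltf at -1.04. All 7 type II cell markers tested were below the wild-type mean, at a median of -0.50, with Sftpa1 at -0.75. The medians were -0.03 for 4 club cell markers (Scgb3a1 at -0.71), 0.16 for 4 fibroblast markers (Col3a1 at 0.36), 0.35 for 3 endothelial markers (Kdr at 0.63) and -0.25 for the adipocyte markers (Adipoq at -0.89). They were -0.04 for 4 mesothelial markers (Upk3b at -0.38), 0.25 for 6 B cell markers (Ms4a1 at 0.63), -0.04 for 5 hepatocyte markers (Ahsg at 0.21) and -0.03 for 14 acute phase and interferon genes (Gbp2 at 0.38). In each of these lists 0 genes passed the adjusted threshold by limma.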

How the data were processed

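Lung RNA of 4 wild-type and 4 transgenic mice was measured on 8 two-colour arrays, and samples were grouped by genotype as the labels give it. Per array the authors deposited Agilent Feature Extraction output (version 10.10.1.1 in its header, 11.0.1.1 in the submitters' processing notes), with raw and processed intensities per spot and a log10 ratio. A matrix of log2 ratios was deposited too; its values equal the processed Cy5 over Cy3 signal within 0.001 for all 39811 single-spot probes. Its symbols named the probes, and 0 columns were unmapped.

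Here, median signals were background-corrected with normexp (offset 50, fitted on unflagged spots), flagged and control spots were left out, loess was applied within arrays and spots of a probe were averaged, in R 4.3.3 with limma 3.58.1. The output holds no mean signals. Testing required a Cy5 signal well above background on 4 or more arrays and 2 or more values per genotype: 33970 of 41174 probes met the first and 32645 both. A list gene whose brightest probe failed this was not tested. Tests were limma's moderated two-sided test, adjusted by Benjamini-Hochberg across all probes that were tested, and exact two-sided permutation of genotypes or of pairings. Scripts were tested on simulated data. A gene was represented by its brightest probe in the sample channel.

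The genes and lists were chosen with earlier results of these data known. Named were all 8 genes, Scgb3a2, other complement genes with unadjusted p under 0.05 or among the 3 highest or 3 lowest differences, the largest change of each marker list and the 3 genes most like each pattern. A few genes named for their ratio to the pool were chosen after their values were seen, as were the 4 motifs and the relations of the genes with marker lists. The interferon-stimulated response element and the NF-kB site were searched as well and were left out after their matches had been seen. Alternatives were other background corrections, normalizations, filters, variance models, blocks, the authors' matrix, the methods' t-test and leaving out each lung.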

Additional observations from a re-analysis of the deposited data

Results flagged for a closer look

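The second C3 probe gave -0.27 in transgenic replicate 1, whereas the nearest of the other 3 transgenic lungs was at -1.24. The gap was 0.90 of the range of the group, above the 95% critical value of Dixon's test for 4 samples. It was the only one of 33 groups of 4 lungs tested in this way for the named complement genes and Scgb3a2, and chance alone marks about 1 group in 20. The same lung was the highest for Cfb, C4b and the brighter C3 probe, none of which passed that test; the C4b values of the wild-type lungs were too few to be tested.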

How the results depend on the processing

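Under all 23 alternatives 0 of the 8 genes and 0 of the 33 other complement genes passed the adjusted threshold between genotypes by limma or the methods' t-test, and Scgb3a2 stayed higher, by 0.73 to 1.11, without passing it. Under 21 alternatives 7 or 8 genes were called below the pool. The signs of the small genotype differences turned as follows; the cause was not tested. With the background fitted on all spots C1qc was -0.15, and C1qb, whose sign held, was -0.33; with median-centring C1qc was -0.0015, C3ar1 -0.040 and C5ar1 -0.033; with the sample channel alone Cfb was 0.16; C3ar1 was -0.011 with array weights and -0.0097 with the mean of all probes of a gene. Leaving out 1 lung moved C1qa between -0.19 and 0.045, C1qb between -0.20 and -0.015, C1qc between -0.0063 and 0.21, C3 between -0.29 and 0.045, C4b between -0.20 and 0.0034, Cfb between -0.45 and 0.12, C3ar1 between -0.054 and 0.15 and C5ar1 between -0.026 and 0.19, and the C3 ratio to the pool between -0.16 and 0.010. Without transgenic replicate 1 the Cfb difference was the one furthest from 0.

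Correlated pairs numbered 4, but 17 with the background fitted on all spots, 14 with the sample channel alone, and 1 to 4 without 1 lung, 2 of them without transgenic replicate 1 or 3 and 1 without transgenic replicate 2 or 4. C3 with Cfb passed under all 17 alternatives run on the pairs. Same-numbered lungs did not deviate together throughout (r of 0.32, 0.25, -0.08 and -0.21), so the numbers do not pair the samples. With the replicate block 0 of 8 genes passed, and C4b moved to -0.20. Lungs of the 2 genotypes that shared a slide gave r of 0.32, 0.25, 0.30 and 0.07, and those on different slides -0.32 to 0.21. The exact permutations did not take the slide into account, and r of the gene pairs within slides was not computed. The number of lungs limits the precision.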
